A study of Homo sapiens with 12 samples.

Results

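SNURF-SNRPN is a gene of the Prader-Willi region on chromosome 15 that encodes 2 proteins, and the stretch described here runs from 25068794 to 25227140 on the plus strand of the human build hg19, up to the point where the long noncoding RNA SPA1 begins. Its members were the nucleotides listed in that span by 12 iCLIP libraries. They numbered 772 of 1162690 listed positions in all. After neighbouring positions were reduced to windows of 11 nt that do not overlap, 332 of 720026 windows lay in the span, with 1564 counts. In iCLIP, ultraviolet light (400 mJ per square centimetre here) fixes proteins to RNA, an antibody recovers one protein, and cDNA ends give the crosslinked nucleotides.

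H9, the cell line used, is an established line of human embryonic stem cells. The 6 groups were FOX2 (RBFOX2), TDP43 and hnRNP M in wild-type (WT) cells and the same proteins in P-KO cells, with 2 libraries each. The labels name the knockout cells SPA PKO. They give neither the deleted sequence nor whether the cells are 1 clone. The series calls the 2 libraries of a group biological replicates. Window counts per library ranged from 58191 to 648651, and the hnRNP M libraries were the shallowest. Values below are window counts, or window counts per 1000000 of the library (CPM). The deposited lists leave out counts under 2, so a place with no entry is called listed at 0. The most frequent listed count was 9 in hnRNP M replicate 1 of both genotypes and 5 in hnRNP M P-KO replicate 2. It was 2 or 3 in all other libraries, so a 0 need not mean the same in every library.

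As background, SNURF-SNRPN is imprinted and is transcribed from the paternal chromosome. SNRPN encodes SmN, a component of the Sm ring of spliceosomal small nuclear ribonucleoproteins, and SNURF encodes a small protein from the upstream reading frame of the same transcript. Transcription continues past the gene into the host transcript of the small nucleolar RNAs and the SPA RNAs. Of the proteins, FOX2 regulates splicing through GCAUG elements, TDP43 prefers GU repeats, and hnRNP M is a splicing regulator of the nucleus.

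The 2 genes share a start. In RefSeq's promoter table for GRCh38.p14 both symbols matched, SNRPN with 4 starts and SNURF with 1, and 1 sequence was the same for both. It is shown because it holds the first transcribed bases common to the 2 members. It runs 5′ to 3′ on the plus strand of chr15:24954737-24955036 in GRCh38.p14, 250 bases before and 50 bases after the start, with the transcribed bases in capitals.
SNURF and SNRPN, shared start: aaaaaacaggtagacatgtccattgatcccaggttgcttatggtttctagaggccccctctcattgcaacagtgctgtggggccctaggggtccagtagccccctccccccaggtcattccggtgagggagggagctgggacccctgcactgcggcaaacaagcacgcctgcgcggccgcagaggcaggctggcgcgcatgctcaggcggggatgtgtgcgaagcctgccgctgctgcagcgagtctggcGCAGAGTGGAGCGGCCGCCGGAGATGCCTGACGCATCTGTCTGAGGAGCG
It holds 18 CG dinucleotides, and 44.5% of the 35116 promoters of this length hold as many or more (median 14). The listed positions are in hg19, so no sequence around them is shown.

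All 3 proteins were listed on the gene in both genotypes, and in each protein both P-KO libraries had a larger share than both WT libraries. FOX2 had 148 and 168 counts on the gene body (WT, 677 and 582 CPM) against 183 and 575 (P-KO, 788 and 886 CPM). TDP43 had 31 and 56 (WT, 149 and 198 CPM) against 81 and 87 (P-KO, 469 and 297 CPM). hnRNP M had 31 and 71 (WT, 503 and 575 CPM) against 78 and 55 (P-KO, 1257 and 945 CPM). The genotypes thus did not overlap within any protein. Among features tested, both P-KO libraries lay above both WT libraries in 16.8% (FOX2), 16.3% (TDP43) and 9.15% (hnRNP M), so within 1 protein this order was common. In WT the libraries ran from TDP43 through hnRNP M to FOX2, and in P-KO from TDP43 through FOX2 to hnRNP M, with no overlap between neighbours; differences between proteins, which were recovered with different antibodies, were not tested.

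The mean of FOX2 was 629 ± 67.0 CPM in WT and 837 ± 69.5 in P-KO (SD, n = 2 each). For TDP43 the means were 174 ± 34.4 and 383 ± 122 CPM, and for hnRNP M 539 ± 50.9 and 1101 ± 221. On the log2 scale the P-KO share was higher by 0.41 (FOX2), 1.11 (TDP43) and 1.01 (hnRNP M). Over the 3 proteins it was higher by 0.85, or 1.80-fold (exact permutation test with genotype permuted within protein, two-sided, p = 0.00926, which is the lowest value open to this design; 0.0231 after Benjamini-Hochberg adjustment over 5 such comparisons). Both P-KO libraries exceeded both WT libraries in all 3 proteins in 0.322% of the 10562 features tested, and lay below them in 0.511%. These features are mostly 10 kb bins over the genome, while the gene body spans 158347 nt. For a single protein the smallest exact p with 2 libraries a genotype is 0.333. When all listed counts were summed without reducing them to windows, the FOX2 difference turned to -0.09 and p for the 3 proteins was 0.037 (exact permutation test). The mean count per window also differed between FOX2 libraries (2.76 and 2.93 against 3.84 and 5.76, WT against P-KO), and its part in the result was not tested. With the window counts of chromosome 15 from 25000001 to 26000000, plus strand, left out of the totals, the difference over the 3 proteins was 0.83. RNA amounts were not measured, so more transcript and more binding per transcript cannot be told apart.

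**Figure D1:**
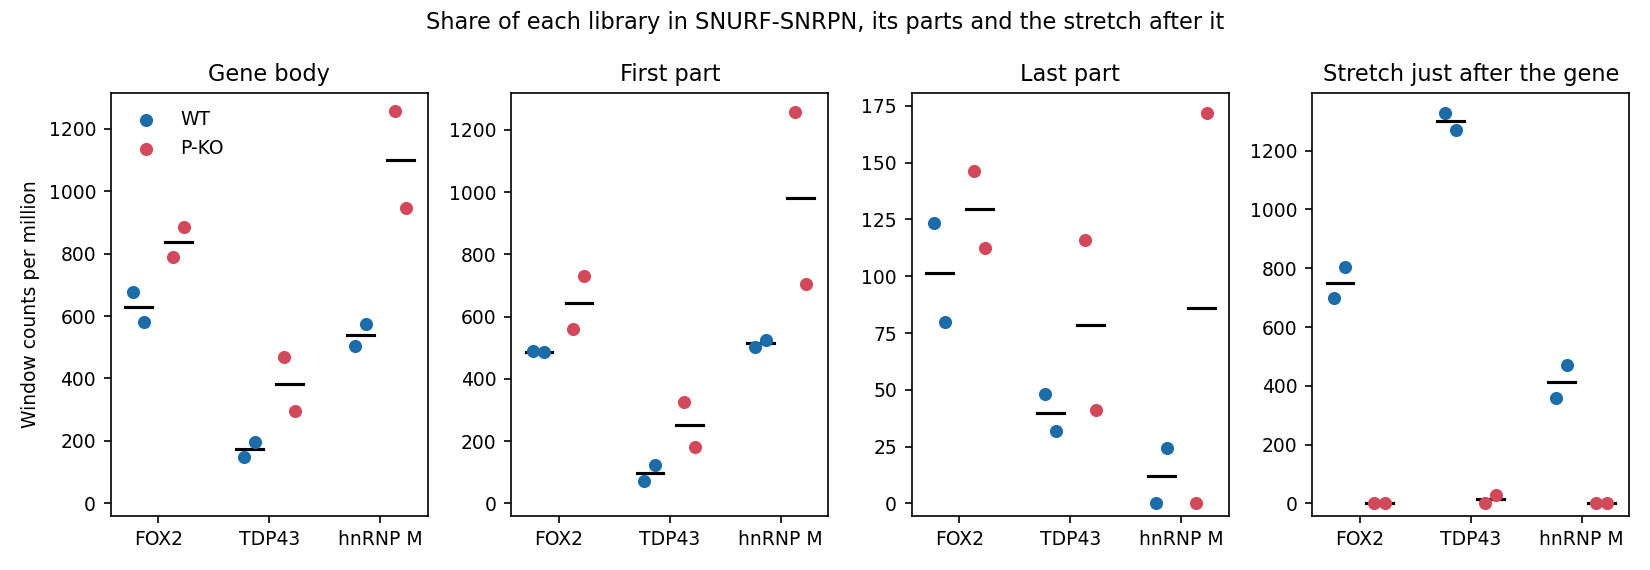
CPM, window counts scaled to the library total (y axis, one scale per panel) for each of the 12 libraries, on the gene body, its first part, its last part and the stretch just after the gene. Points are libraries and black lines are means of 2; P-KO points lie above WT points in the first 2 panels for every protein and at or near 0 in the last panel.

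The difference on the gene body was not called in the test across the genome. In the edgeR quasi-likelihood fit the log2 change, P-KO against WT, was 0.68 ± 0.76 (SE) over the 3 proteins, with adjusted p = 0.857. It was 0.60 ± 1.30 in FOX2, 0.95 ± 1.32 in TDP43 and 0.47 ± 1.31 in hnRNP M, each with adjusted p = 1.00 by edgeR. Of all features tested, 0.133% were called for the 3 proteins together, and by protein 0.0284% (FOX2), 0.0284% (TDP43) and 0.0473% (hnRNP M), and each called feature was lower in P-KO. The standard errors are as large as the changes: the fit pools the spread over all features, for which the biological coefficient of variation was 1.08. For single proteins the edgeR direction turned in FOX2 when its libraries were fitted alone (-0.11) and in hnRNP M without WT replicate 1 (-0.46). The interaction of genotype with protein was also not called for the gene body (adjusted p = 1.00 by edgeR, unadjusted p = 0.965), and 0 features were called in that test, with 513 at an unadjusted p under 0.05 in the table of the gene's parts.

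The span was then divided at the coordinates of its rule. The part before 25200001 covers 131207 nt and holds the upstream exons and introns. The first part, from 25200001 to 25219999, held most of the counts. The last part, from 25220000 to 25227140, ends where SPA1 begins. The gene, as used here, means the whole span up to this end. The last window that the authors annotated as exonic was at 25223757, and the listed windows beyond it were assigned to introns.

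The upstream part was sparse in every library. WT against P-KO, FOX2 had 14 and 5 counts against 19 and 29, TDP43 6 and 12 against 5 and 22, and hnRNP M 0 and 3 against 0 and 4. The genotypes overlapped in all 3 proteins, and the log2 share was higher by 0.64 in P-KO (exact permutation test, p = 0.343). Per length this part had 0.310 ± 0.252 CPM per kb for FOX2 in WT, against 24.4 ± 0.150 on the first part. The start shared by SNURF and SNRPN was not placed in the build of the listed positions. Whether transcripts from that start cover the upstream part was therefore not determined. The values per length need not compare binding within a single transcript.

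On the first part the 2 genotypes were again apart within each protein. FOX2 had 107 and 140 counts (WT) against 130 and 473 (P-KO), which is 487 ± 3.00 CPM against 645 ± 120. TDP43 had 15 and 35 (WT) against 56 and 53 (P-KO), or 97.9 ± 36.4 against 253 ± 101 CPM. hnRNP M had 31 and 65 (WT) against 78 and 41 (P-KO), or 515 ± 16.5 against 981 ± 391 CPM. Both P-KO libraries lay above both WT libraries in each protein, as they did in 0.322% of the 10564 features tested with the gene in parts (9.14% for hnRNP M alone). In 0.511% of these features both lay below in all 3 proteins. The log2 share was higher by 0.39, 1.34 and 0.87, and by 0.87 over the 3 proteins (exact permutation test, p = 0.00926; 0.0231 adjusted over 5 comparisons). edgeR did not call it (log2 change 0.70 ± 0.76, adjusted p = 0.842, for the 3 proteins). In edgeR the change of hnRNP M on the first part was 0.37 ± 1.31 and turned to -0.53 without WT replicate 1 and to -0.07 without P-KO replicate 1. That of FOX2 turned to -0.12 in a fit of its own libraries, and its log2 share to -0.12 with all listed counts summed.

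FOX2 counts gathered at the start of the first part. The first 2 kb, from 25200001 to 25202000, held 39.9% and 44.0% (WT) against 36.6% and 50.1% (P-KO) of FOX2 counts on the gene. For TDP43 the same 2 kb held 19.4% and 0% (WT) against 9.88% and 20.7% (P-KO). hnRNP M was listed at 0 there in WT replicate 1 and had 7.04% in replicate 2, while it had 37.2% and 30.9% in P-KO. The FOX2 shares thus overlapped between genotypes. The hnRNP M shares did not, but they rest on 0 and 1 windows (WT, 0 and 5 counts) against 3 and 3 (P-KO, 29 and 17 counts). By CPM, both hnRNP M P-KO libraries lay above both WT libraries in 9.14% of features tested. How often a share within a gene separates the genotypes elsewhere was not computed. This 2 kb stretch was chosen after its values were seen, so no test is given for it.

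**Figure D2:**
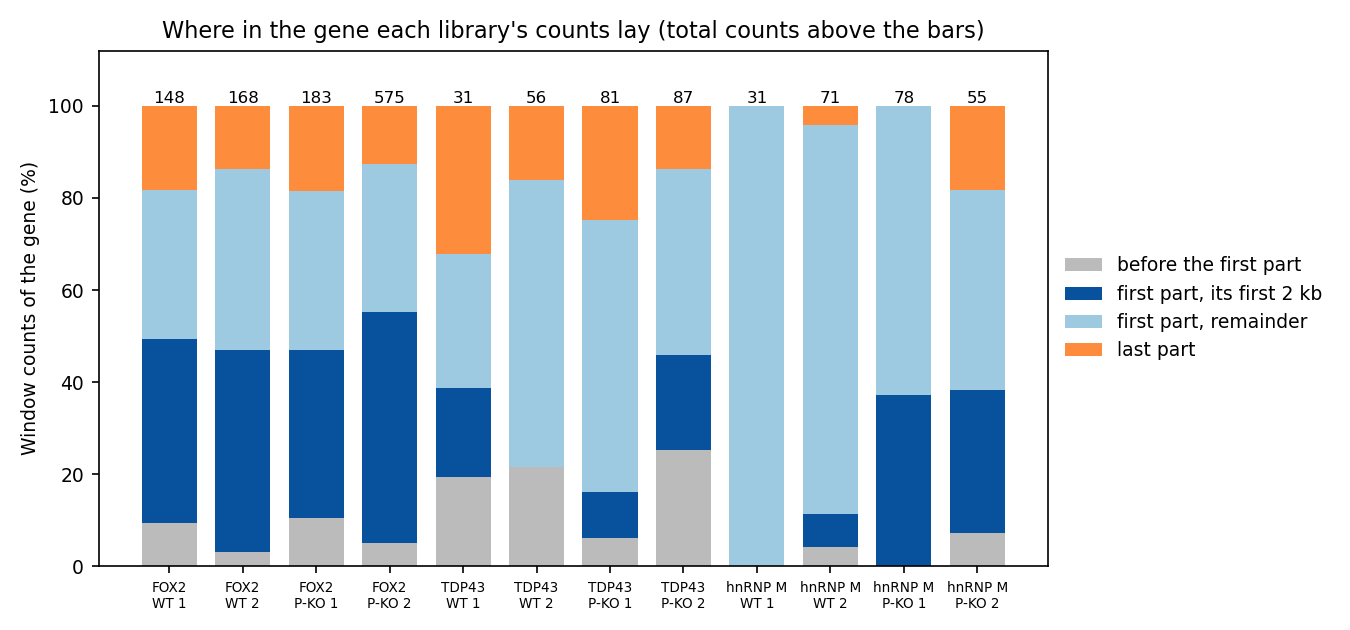
Percentage of each library's window counts on the gene (y axis) that lay before the first part, in the first 2 kb of the first part, in its remainder and in the last part, with the gene's total counts above each bar. FOX2 bars have 36.6% to 50.1% in the first 2 kb in both genotypes, while the hnRNP M bars rest on 31 to 78 counts.

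The last part carried signal in P-KO cells as well. FOX2 had 27 and 23 counts (WT, 123 and 79.7 CPM) against 34 and 73 (P-KO, 146 and 113 CPM). TDP43 had 10 and 9 (WT, 48.1 and 31.8 CPM) against 20 and 12 (P-KO, 116 and 41.0 CPM). hnRNP M had 0 and 3 (WT) against 0 and 10 (P-KO). WT and P-KO overlapped in every protein. The log2 share was higher by 0.83 in P-KO over the 3 proteins and did not pass (exact permutation test, p = 0.324; 0.428 adjusted over 5 comparisons). In edgeR the change was 1.08 ± 0.90 (adjusted p = 0.741), with 0.52 ± 1.46 (FOX2), 0.76 ± 1.51 (TDP43) and 1.96 ± 1.74 (hnRNP M), none of them called. The hnRNP M value rests on P-KO replicate 2: without that library its difference in log2 share was -0.91, the 3-protein difference was 0.08, and the edgeR change over the 3 proteins turned to -0.82. Without hnRNP M P-KO replicate 1 the share over the 3 proteins passed (exact permutation test, p = 0.0463).

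A share of the gene's own counts is free of scaling by the library total, though which windows are listed can vary with depth. By this share the last part did not differ detectably between genotypes. It was 18.2% and 13.7% (WT) against 18.6% and 12.7% (P-KO) of FOX2 counts. For TDP43 it was 32.3% and 16.1% (WT) against 24.7% and 13.8% (P-KO), and for hnRNP M 0% and 4.23% (WT) against 0% and 18.2% (P-KO). The ratio changed by -0.02 on the log2 scale (exact permutation test, p = 0.981), and its sign turned under several settings. The data therefore do not give it a direction.

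The pattern ended at the end of the span. In the stretch from 25227141 to 25230000, the first 2860 nt of the SPA1 side, FOX2 had 153 and 232 counts (WT), with both P-KO libraries listed at 0. TDP43 had 276 and 360 (WT) against 0 and 8 (P-KO). hnRNP M had 22 and 58 (WT), again with P-KO listed at 0 throughout. Unlike the last part of the gene, every protein had lower P-KO than WT values here, as 0.511% of features did in all 3 proteins (26% in FOX2, 12.9% in TDP43 and 9.39% in hnRNP M). This stretch was added after the data were examined, and the labels name the knockout cells SPA PKO. The labels do not give the deleted sequence, and RNA amounts were not measured. Loss of the sequence itself, less transcript and less binding per transcript therefore cannot be told apart here. edgeR called the stretch for the 3 proteins (adjusted p = 1.47e-09) and for FOX2 (adjusted p = 0.00768). Neither TDP43 (adjusted p = 0.307) nor hnRNP M (adjusted p = 0.244) was called by edgeR. The call over the 3 proteins held in every alternative fitted, with adjusted p from 2.92e-17 (DESeq2) to 0.00166 (edgeR without FOX2 P-KO replicate 1). That of FOX2 was lost in edgeR when any 1 of its own libraries was left out (adjusted p = 0.443 and 1.00 without WT replicates 1 and 2, 1.00 and 0.928 without P-KO replicates 1 and 2). It was also lost without TDP43 WT replicate 1 (0.0715), TDP43 WT replicate 2 (0.083) or TDP43 P-KO replicate 2 (0.0643). TDP43 was called in edgeR without hnRNP M WT replicate 1 (adjusted p = 0.0225) or 2 (0.0245), and hnRNP M without its own WT replicate 1 (0.00713). No fold is given, because 5 of the 6 P-KO libraries were listed at 0 here. The ratio of the last part to this stretch was also compared by exact permutation. With 5 of the 6 P-KO libraries listed at 0 in the stretch, this ratio was bound to be higher in P-KO. It was so over the 3 proteins in every alternative run, which says nothing about the last part. Its size rests on the added 0.5, and it was left out of the adjustment over 5 comparisons.

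In WT cells the level per length changed sharply at the same place. FOX2 had 14.2 ± 4.33 CPM per kb on the last part and 263 ± 25.7 on the stretch after it. TDP43 had 5.60 ± 1.62 and 455 ± 13.9, and hnRNP M 1.70 ± 2.41 and 145 ± 27.9. The first window after the end of the span lay 198 to 273 nt beyond it in all 6 WT libraries. In P-KO it lay 105325 and 5013 nt beyond it for FOX2, 27494 and 2417 nt for TDP43, and 139368 and 149478 nt for hnRNP M.

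**Figure D3:**
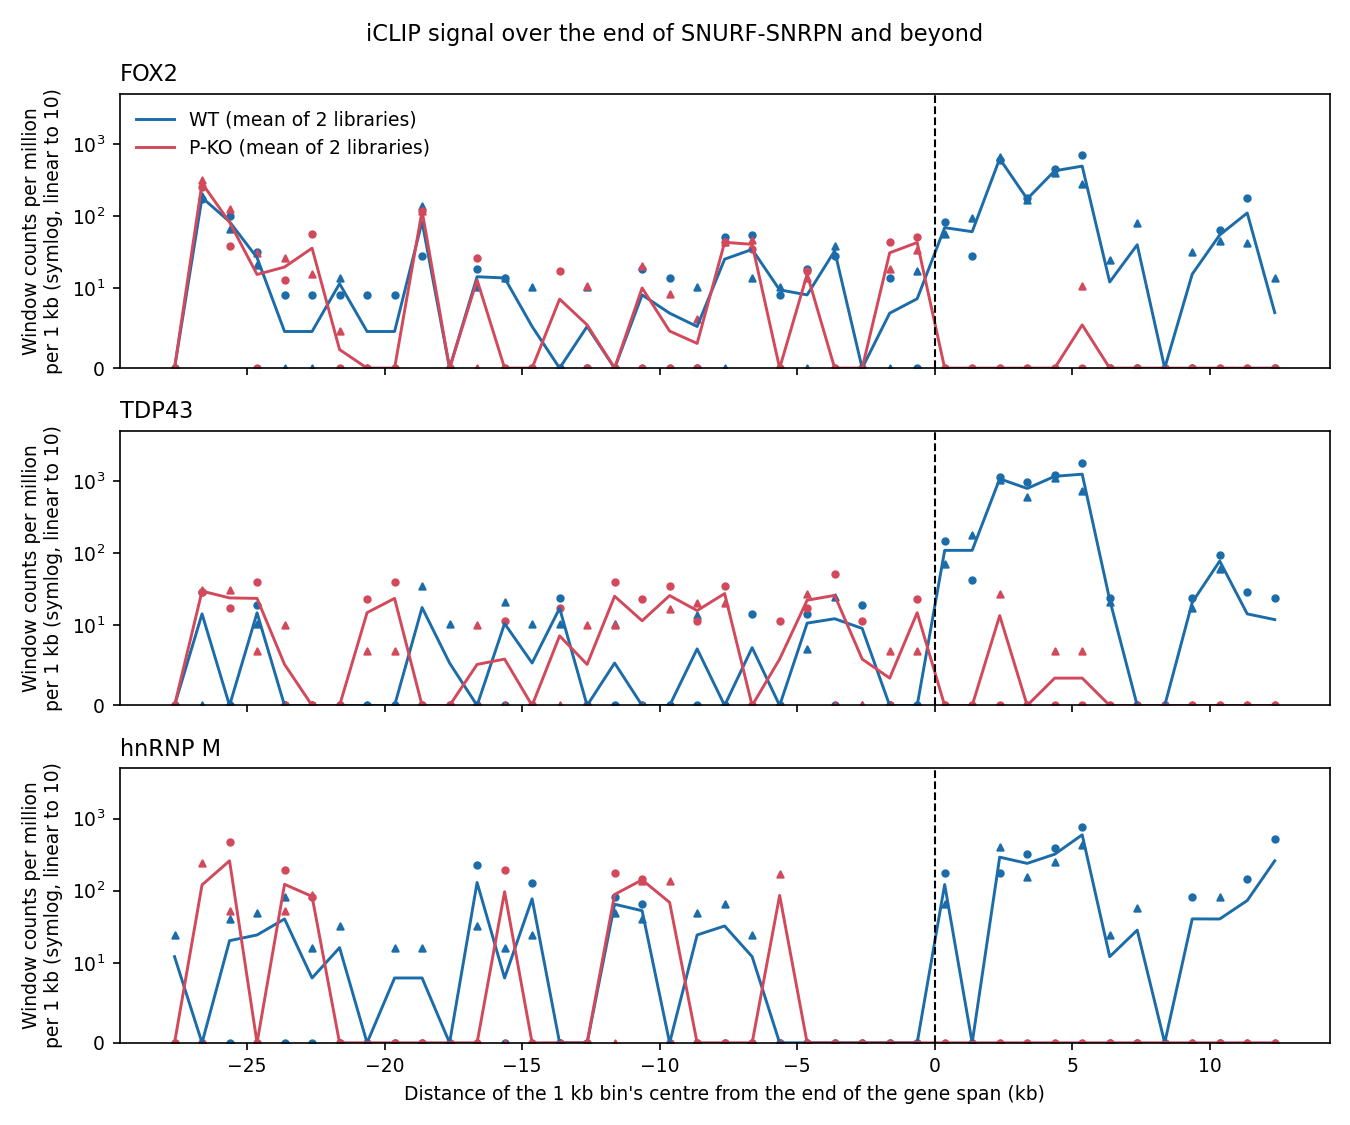
CPM in 1 kb bins (y axis, linear to 10 and logarithmic above) against the distance of the bin from the end of the gene span (x axis, kb; dashed line at 0), for each protein. Lines are means of 2 libraries, circles replicate 1 and triangles replicate 2; WT and P-KO are both listed left of the line, and right of it P-KO is mostly at 0.

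Close to that end FOX2 was listed more densely in P-KO. Between 25225001 and 25227140, FOX2 had 1 window in each WT library, with 3 and 5 counts, and 10 and 8 windows in P-KO, with 22 and 34 counts. This is 15.5 ± 2.55 CPM in WT and 73.6 ± 29.9 in P-KO. TDP43 was listed at 0 there in both WT libraries and had 4 counts in each P-KO library, in 1 and 2 windows. hnRNP M was listed at 0 in all 4 libraries. The last window inside the span lay 400 and 510 nt before its end in FOX2 P-KO, and 1678 and 548 nt before it in FOX2 WT. By CPM, both P-KO libraries lay above both WT libraries in 16.8% (FOX2) and 16.3% (TDP43) of features tested. With q at 0.01 or below, FOX2 had 0 and 4 counts in these 2140 nt (WT) against 6 and 13 (P-KO). The library totals at that limit were 122275 and 155797 (WT) against 154000 and 485848 (P-KO). These 2140 nt were chosen after their values were seen, so the difference has no test.

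The authors' annotation placed nearly all of this signal in introns. Of the 1564 counts on the gene, 47.6% were assigned to intron 3 of ENST00000400098.1, with listed windows from 25165721 to 25207032, 15.2% to intron 4 and 8.70% to intron 5 of the same transcript. In all, 13 transcripts were named. Introns of different transcripts share sites: intron 4 of ENST00000400100.1 had 1.28% of the counts, from 25200533 to 25207034, all in 1 library. The percentages per intron thus depend on which transcript the lists name. Whether the start shared by SNURF and SNRPN lies within intron 3 of ENST00000400098.1 was not determined. Exonic windows numbered 7, with 28 counts or 1.79% of the total, and lay in 4 libraries of WT and 1 of P-KO. TDP43 contributed 5 of these 7 windows: 1 in WT replicate 1, 2 in WT replicate 2 and 2 in P-KO replicate 1. Over whole libraries the intronic share was 79.7% to 95.4%. On the gene it was 98.0% to 100% for FOX2 and 100% in all 4 hnRNP M libraries, and 82.1% to 100% for TDP43. The minus strand of the same span had 0 counts in all 12 libraries.

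Sites were joined over the 12 libraries, which gave 238 sites, 159 of them in the first part, 47 in the last and 32 upstream. Of these, 182 were listed in 1 library only and none in more than 5. FOX2 was listed at 138 sites, 42 of them in at least 2 of its libraries. TDP43 was listed at 82 sites, of which 4 were in at least 2 libraries, and hnRNP M at 42, none of them in more than 1 library. FOX2 and TDP43 shared 19 sites, which is 13.8% of the FOX2 and 23.2% of the TDP43 sites. Of the FOX2 sites listed in WT, 50.7% were also listed in P-KO (35 of 69), against 3.85% for TDP43 (1 of 26) and 0% for hnRNP M (0 of 24). Outside the gene, the same joining gave 12.2% (FOX2), 7.72% (TDP43) and 0.761% (hnRNP M). The share of sites listed in at least 2 libraries of the protein was 30.4% on the gene against 9.34% outside it (FOX2), 4.88% against 5.08% (TDP43) and 0% against 0.661% (hnRNP M). FOX2 sites with a TDP43 entry made up 3.77% outside the gene, and TDP43 sites with a FOX2 entry 4.02%. These shares vary with library depth and site height and were not tested. The values of TDP43 and hnRNP M on the gene are thus sums over sites that mostly appear in 1 library.

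The site with the highest FOX2 value was at 25208940, in intron 4 of ENST00000400098.1. Its FOX2 counts were 3 and 37 (WT) against 22 and 56 (P-KO), so the genotypes overlapped, and it was listed at 0 in all TDP43 and hnRNP M libraries. Without it the share of the gene body was still higher in P-KO by 0.85 on the log2 scale over the 3 proteins. A site at 25200987, in intron 3, had 6 and 5 counts (WT) against 9 and 6 (P-KO), and was also listed in FOX2 only. The neighbouring site at 25200956 had 3 and 13 FOX2 counts (WT) against 0 and 19 (P-KO). It was also listed in TDP43 P-KO replicate 2 (2 counts) and hnRNP M P-KO replicate 2 (5 counts), which made it 1 of 2 sites of the gene seen with all 3 proteins. At 25220247, in the last part and intron 6, FOX2 had 8 and 0 (WT) against 8 and 19 (P-KO).

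The TDP43 sites were lower. The highest, at 25219779 in intron 6, was listed at 0 in WT and had 3 and 6 counts in P-KO. FOX2 had 5 and 0 (WT) against 6 and 16 (P-KO) there. The site at 25213128, which the authors annotated as exonic in ENST00000400098.1 or ENST00000553597.1, was seen in TDP43 WT alone (5 and 3 counts) and was listed at 0 in P-KO. The site at 25218721 in intron 5 had 0 and 4 (WT) against 0 and 6 (P-KO). The site at 25226296 lay in intron 5 of ENST00000557230.1, 844 nt before the end of the span. It was listed at 0 in WT and had 4 and 2 counts in P-KO. Single sites were not tested.

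**Figure D4:**
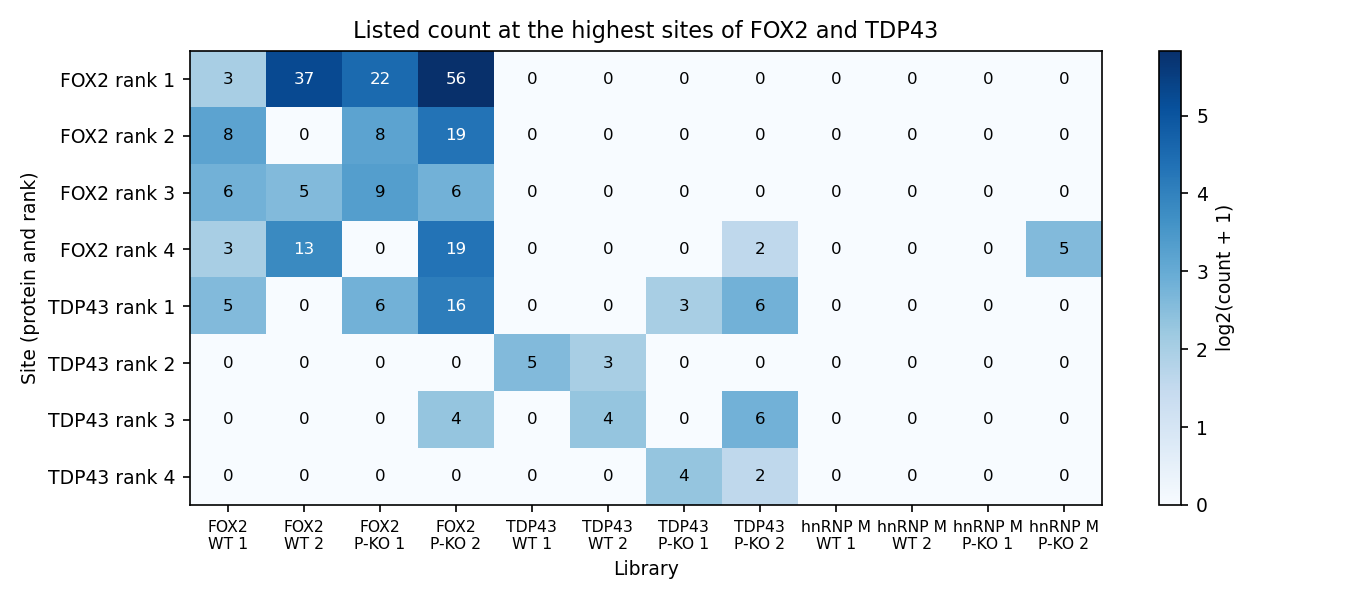
Listed counts (numbers in the cells; shading is log2 of count + 1) at the 4 highest sites of FOX2 and of TDP43 on the gene (rows) in the 12 libraries (columns). FOX2 rank 1 ranges from 3 to 56 counts across the FOX2 libraries and is at 0 elsewhere, and the TDP43 sites hold at most 6 TDP43 counts.

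Outside the gene, the features whose log2 CPM was most like that of the last part over the 12 libraries were chr9:134360001-134370000, plus strand (Pearson's r = 0.94), chr3:9470001-9480000, plus strand (0.92), and chr13:29060001-29070000, minus strand (0.91). Those most like the first part were chr3:195620001-195630000, minus strand (0.92), chr6:15270001-15280000, plus strand (0.91), and chr1:64250001-64260000, plus strand (0.90). The chromosome 6 feature, for example, had 104 and 204 FOX2 counts (WT) against 228 and 634 (P-KO). The 12 libraries differ in protein and depth, and these were the highest correlations among the features tested, so they are given as a description.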

How the data were processed

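Per the submitters' processing notes, iCLIP reads were aligned with Bowtie to GRCh37 (hg19). No peak caller is named in the sources used here. What the authors deposited is, for each library, a list of single nucleotides with an Ensembl transcript, a strand, a whole-number count (not normalized) and a p-value or q-value up to 0.05; whether counts are reads or collapsed cDNAs is not stated. Listed positions overlap, so windows were kept from the highest count downwards at least 11 nt apart on a strand, and their counts summed. Libraries held 58191 to 648651 window counts. Shares were compared as log2 of (counts + 0.5) over the total by an exact permutation test, two-sided, with genotype permuted within protein (Python 3.11.15, scipy 1.17.1); p-values measure only the spread between these libraries.

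For the test across features, strand-specific 10 kb bins were counted, with the bins of the gene replaced by its parts or, in a second table, by the gene body. edgeR 4.0.16 in R 4.3.3 (filterByExpr, TMM, quasi-likelihood F test, Benjamini-Hochberg adjustment over all features, threshold 0.05) was fitted to all 12 libraries with a mean per protein and genotype. SE is the log2 change divided by the square root of F. DESeq2 1.42.0 was an alternative. The edgeR fit was also run on simulated counts with planted changes far larger than the main changes on the gene. That run does not show how the fit handles changes of the gene's size.

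The span, its parts and the lists were chosen with earlier results of these data known. The stretch after the gene, the upstream part and the recurrence of sites outside the gene were added after the data were examined. Sites named are, per protein, the 4 of highest mean CPM listed in at least 2 of its 4 libraries (none for hnRNP M) and those in at least 6 libraries (none); each library's value is the highest count within 5 nt. Features named as alike are the 3 of highest Pearson's r. Planned lists of Sm protein genes, Prader-Willi genes and stem cell markers were not used here, because no table used here pairs the transcript identifiers with symbols; the cell type was therefore not checked.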

Additional observations from a re-analysis of the deposited data

How the results depend on the processing

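The higher P-KO share over the 3 proteins kept its direction and stayed under 0.05 in the exact permutation test in every alternative run for the gene body and the first part; with single libraries left out it was 0.74 to 0.96 and 0.72 to 1.01 (log2). The last part passed by number of windows (1.02, exact permutation p = 0.037) and was 0.079 to 1.57 with libraries left out, with hnRNP M from -0.91 to 3.57. FOX2 turned to -0.091 on the gene body and -0.12 on the first part with all listed counts summed, and to -0.28 on the last part with q at 0.01 or below. The last part as a share of the gene turned to 0.18 (all listed counts), 0.22 (number of windows) and 0.056 (21 nt between windows) in FOX2, and over the 3 proteins to 0.13 (number of windows) and 0.12 (q at 0.01 or below). With libraries left out this share was -0.33 to 0.23 in FOX2, -0.83 to 0.17 in TDP43, -2.14 to 2.76 in hnRNP M and -0.84 to 0.79 over all 3.

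In edgeR, FOX2 on the last part turned to -0.064 with at least 20 counts in 2 libraries. Fitted alone, FOX2 was -0.12 on the first part, -0.17 on the last part and -0.11 on the gene body; hnRNP M on the last part could not be fitted alone. With libraries left out, hnRNP M was -0.53 to 1.28 on the first part, -3.82 to 5.53 on the last part and -0.46 to 1.48 on the gene body, and the last part over the 3 proteins was -0.82 to 2.30. No alternative brought the gene body or its parts under the threshold. On the stretch after the gene, the FOX2 call was also lost with edgeR's robust option (adjusted p = 0.0793). TDP43 was called there with the replicate block (0.0315), without TMM (0.0166), by number of windows (1.14e-05) and by DESeq2 (8.77e-06), and hnRNP M by DESeq2 (0.00455).

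Features called over the genome, 3 in FOX2, 3 in TDP43, 5 in hnRNP M and 14 over the 3 proteins, were 9 in FOX2 and 6 in TDP43 without TMM, 2 in hnRNP M with no filter, 1 in TDP43 and 0 in hnRNP M with at least 20 counts in 2 libraries, and 0, 1 and 0 with the robust option. By number of windows they were 16 in FOX2 and 8 in TDP43, with each protein alone 10, 0 and 0, and by DESeq2 13, 7, 32 and 26. With libraries left out they were 0 to 10 in FOX2, 0 to 5 in TDP43, 0 to 9 in hnRNP M and 9 to 16 over the 3. The causes were not tested.

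The replicate numbers were not taken as pairs. Over 10564 features, the deviation of replicate 1 from its group mean (log2 CPM) was compared between WT and P-KO. Pearson's r of these deviations was 0.0925 in FOX2, 0.0748 in TDP43 and 0.0265 in hnRNP M. With a replicate block the exact permutation p was 0.03125 for the gene body and the first part (the smallest possible), 0.0625 for the last part and 0.9375 for its share of the gene, and edgeR called 10 features in FOX2.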
